A study of Mus musculus with 2 samples.

Results

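YAP and TAZ are coactivators that bind the TEAD transcription factors, and 10 mouse genes of this system were followed in newborn cerebral cortex. They are the 4 TEAD genes Tead1, Tead2, Tead3 and Tead4, the coactivator genes Yap1 and Wwtr1 (which encodes TAZ), and 4 target genes shared with the MRTF coactivators, namely Ccn1, Ccn2, Ankrd1 and Amotl2. The members were chosen by gene name, and every probe set that the platform annotation gives to exactly 1 of them was used. This gave 19 probe sets for 10 of the 18193 genes that a probe set of the array names alone. RNA was pooled from the cortex of 3 animals per group and each pool was read on 1 Affymetrix array, so there are 2 arrays in all and no replicate. The double knockout pool came from animals of genotype MRTF-A-/-;MRTF-BF/F that also carried GFAP-Cre. The control pool had the same MRTF alleles (MRTFA-/- with MRTF-B Flox/Flox) and no Cre, so both pools are labelled as lacking Mrtfa. The pools are called here by their labels. The age is postnatal day 0 for both, although the description of the double knockout sample gives day 1. Cre under a GFAP promoter removes floxed segments only in the cells in which the transgene is or was active, and the sources used here do not say which form of the promoter was used. As labelled, the comparison asks what Cre-driven loss of Mrtfb adds to an Mrtfa-null genotype.

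In the Hippo pathway the kinases MST1 and MST2 activate LATS1 and LATS2, which phosphorylate YAP and TAZ and keep them out of the nucleus. Unphosphorylated YAP and TAZ enter the nucleus, bind TEAD proteins on DNA and raise the transcription of genes such as Ccn1, Ccn2, Ankrd1 and Amotl2. MRTF-A and MRTF-B are released from monomeric actin when filaments form and act through SRF, and in cultured fibroblasts and tumour cells the MRTF-SRF and YAP-TEAD programmes respond to the same cytoskeletal cues and share targets. In the developing brain YAP is best known from neural progenitors, ependyma and astrocytes, while Ccn2 is a marker of subplate and deep-layer neurons.

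A signal counted as measured when it reached a floor of 178.9, the 50th percentile of the signals on both arrays. Signals are the authors' MAS5 intensities in arbitrary units, and levels are not compared between probe sets. Differences are double knockout minus control on the log2 scale, after a centring shift of 0.0037. Of the 19 member probe sets, 6 reached the floor on both arrays, 2 on the control array alone and 11 on neither. Through these, 6 of the 10 genes had a value: Ccn2, Amotl2, Tead1, Tead3, Yap1 and Wwtr1. Ccn1, Ankrd1, Tead2 and Tead4 stayed under the floor on both arrays and have no fold here. With 1 array per group no test was possible and no p-value is given, so differences are read against the spread over all genes.

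**Figure D1:**
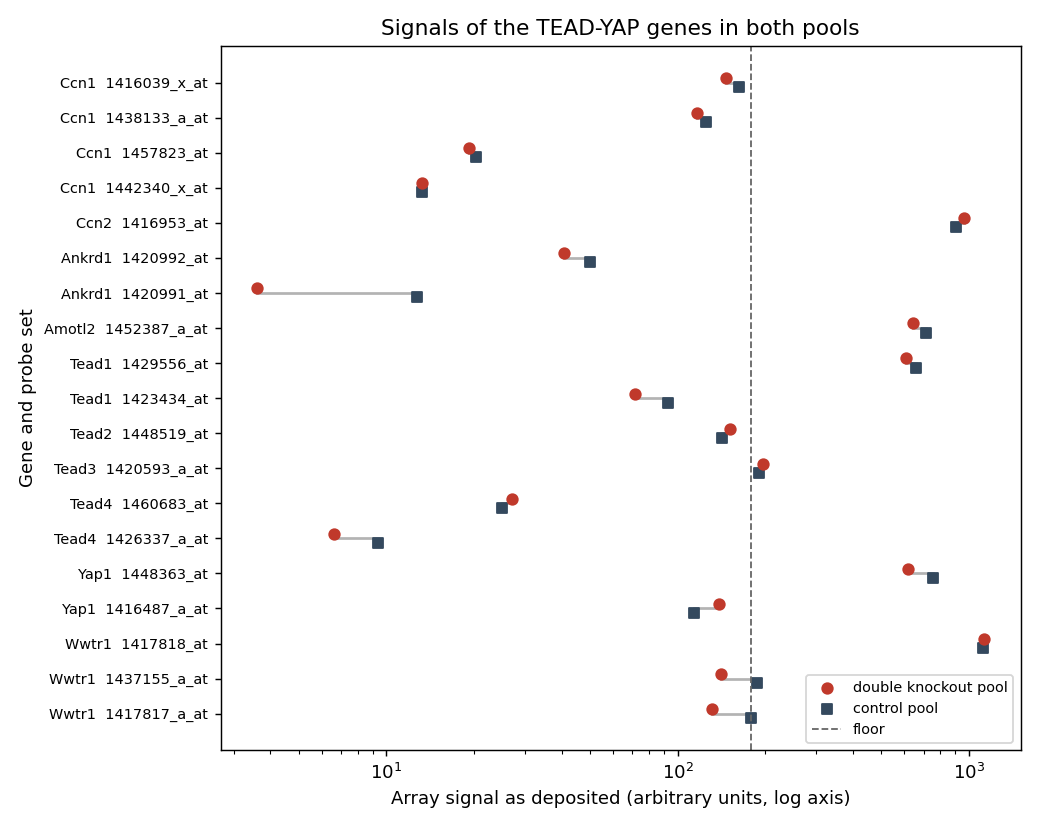
Deposited signal (log axis, arbitrary units) of each of the 19 member probe sets in the double knockout pool (circles) and the control pool (squares), with the floor of 178.9 as a dashed line. Symbols of a probe set are shifted slightly up and down so that both can be seen, and 6 probe sets reach the floor in both pools, those of Wwtr1, Ccn2, Amotl2, Tead1, Yap1 and Tead3.

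The tissue and the targeted genes were checked first. Mrtfa, labelled null in both pools, read 262.4 in the double knockout pool and 601.6 in the control pool on its only probe set, a difference of -1.20 or 2.30-fold lower. The Mrtfa signal lay above the floor in both pools and was unequal between them, although they carry the same Mrtfa label. The reason was not tested. Mrtfb, floxed in both pools, read 2481.8 in the double knockout pool and 3358.9 in the control pool on its brightest probe set, a difference of -0.44, with a mean of -0.33 ± 0.15 (SD, 2 probe sets). No source used here places these probe sets relative to the deleted segments, and neither value settles the genotype. The cortical neuron genes Tbr1, Neurod6, Emx1, Fezf2 and Bcl11b, all 5 of those with a probe set naming them alone, were measured in both pools. Over the 11636 measured genes, 1.14% differed by at least 1.5-fold in either direction, 0.37% higher and 0.773% lower in the double knockout pool, while 52.9% were higher and 47.1% lower by any amount. The SD of the difference was 0.187 over the 11013 genes that reached the floor on both arrays, and probe sets of the same gene differed with a pooled SD of 0.181 over 4858 genes.

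None of the 6 measured members differed by 1.5-fold, against 1.14% of all measured genes. There were 3 members higher and 3 lower in the double knockout pool, beside 52.9% higher and 47.1% lower over all measured genes. The median member difference was -0.06, against 0.01 over all measured genes. Amotl2, Tead1 and Yap1 were the lower ones and Ccn2, Tead3 and Wwtr1 the higher ones. After quantile normalization or loess centring Wwtr1 changed side, leaving 2 higher and 4 lower. Yap1 was the only member whose difference exceeded the SD over all genes, and the others lay between -0.15 and 0.09.

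**Figure D2:**
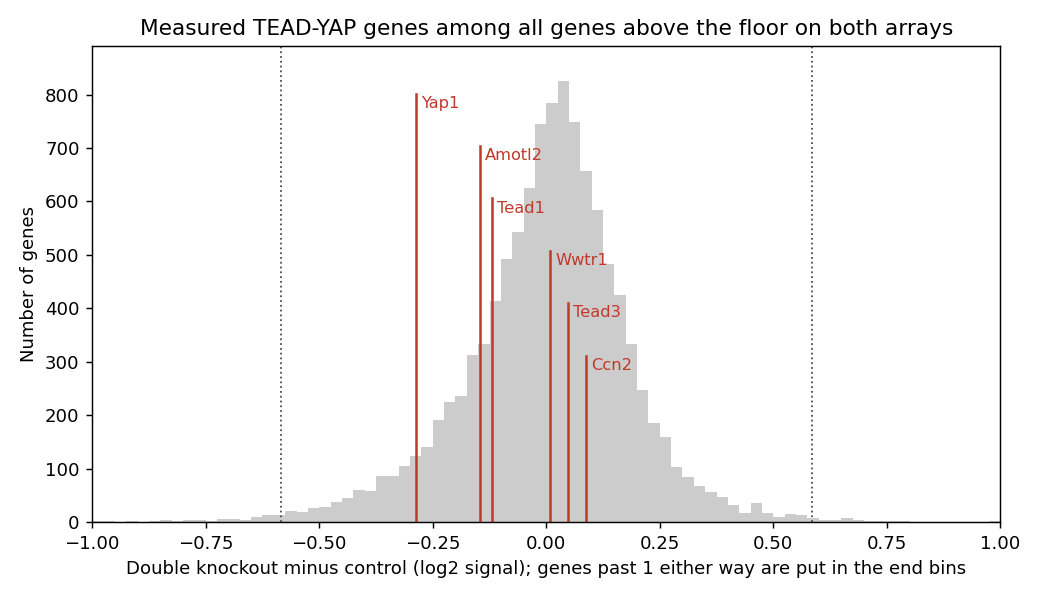
Histogram of the difference between the pools (double knockout minus control, log2) for the 11013 genes that reached the floor on both arrays, with the 6 measured members as red lines of arbitrary height and 1.5-fold as dotted lines. All 6 members lie inside the dotted lines, with Yap1 at -0.29 farthest from 0 and Ccn2 at 0.09 the highest.

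Yap1 encodes YAP, the coactivator that carries the Hippo signal into the nucleus. Its brighter probe set, 1448363_at, read 619.3 in the double knockout pool and 754.1 in the control pool, which is 1.22-fold lower at -0.29. Among genes that reached the floor on both arrays, 704 (6.39%) were as low or lower, and the SD among the 3671 genes of medium signal, where Yap1 lies, was 0.178. Its other probe set, 1416487_a_at, read 139.3 in the double knockout pool and 114.3 in the control pool, under the floor in both, so it neither adds to the difference nor gives its direction. The Yap1 value therefore rests on 1 probe set. In tissue RNA, fewer cells of a type and less RNA per cell cannot be told apart.

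Wwtr1 encodes TAZ, the closest relative of YAP, which binds the same TEAD proteins. Its brightest probe set, 1417818_at, read 1129.7 in the double knockout pool and 1120.4 in the control pool. That is a difference of 0.01, which turned to -0.0042 after quantile normalization and -0.01 after loess centring. The other Wwtr1 probe sets crossed the floor in the control pool alone. Probe set 1437155_a_at read 140.5 in the double knockout pool and 187.5 in the control pool, at least 1.05-fold lower. Probe set 1417817_a_at read 131.3 in the double knockout pool and 178.9 in the control pool, at the floor, so close to it that the bound gives no fold. The mean over all 3 with the floor in place was -0.02.

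The TEAD genes encode the DNA-binding partners through which YAP and TAZ act, and Tead1 and Tead3 were measured. Tead1 read 608.0 in the double knockout pool and 658.9 in the control pool on probe set 1429556_at, 1.09-fold lower at -0.12. Its second probe set, 1423434_at, read 71.7 in the double knockout pool and 92.7 in the control pool, under the floor in both. Of all genes above the floor, 20.8% were as low as Tead1 or lower. Tead3 lay just above the floor, at 196.6 in the double knockout pool and 189.8 in the control pool, a difference of 0.05. Tead3 was among the 3671 dimmest genes, where the SD of the difference was 0.234, and its value was 0.15 after quantile normalization and 0.10 after loess centring. Tead2, known for high expression in early embryos and neural progenitors, lay just below the floor, at 151.3 in the double knockout pool and 142.1 in the control pool on its only probe set. With the floor at the 25th percentile Tead2 had a difference of 0.09. Tead4, best known from trophectoderm and muscle, read 27.0 and 6.6 in the double knockout pool on its 2 probe sets, against 24.9 and 9.4 in the control pool, far below the floor. A signal under the floor is a bound and does not show that a gene is silent.

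The shared targets were read in the light of their promoters, which are shown because TEAD proteins are known to act through motifs near the start of such targets. The windows are the 250 bases before the RefSeq start site (GRCm38.p6), 5' to 3' on the strand of the gene, with each match to the TEAD core motif CATTCC, or GGAATG on the other strand, in capitals. The Amotl2 window is chr9:102717554-102717803 on the plus strand, with its match beginning 65 bases before the start. The Ccn1 window is chr3:145649986-145650235 on the minus strand, with its match beginning 103 bases before the start. The Ankrd1 window is chr19:36119845-36120094 on the minus strand, with matches beginning 210 and 123 bases before the start. The Yap1 window, shown because Yap1 had the largest difference of the members, is chr9:8004597-8004846 on the minus strand, with its match beginning 141 bases before the start.
Amotl2: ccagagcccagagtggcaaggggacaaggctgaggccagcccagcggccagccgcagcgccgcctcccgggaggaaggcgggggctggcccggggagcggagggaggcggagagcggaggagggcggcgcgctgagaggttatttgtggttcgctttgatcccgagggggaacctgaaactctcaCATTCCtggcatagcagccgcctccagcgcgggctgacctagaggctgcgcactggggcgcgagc
Ccn1: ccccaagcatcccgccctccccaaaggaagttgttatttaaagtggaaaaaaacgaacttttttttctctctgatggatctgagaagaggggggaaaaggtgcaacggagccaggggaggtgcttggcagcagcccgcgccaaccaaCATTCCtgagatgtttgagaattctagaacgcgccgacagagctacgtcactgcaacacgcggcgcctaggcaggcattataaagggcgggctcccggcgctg
Ankrd1: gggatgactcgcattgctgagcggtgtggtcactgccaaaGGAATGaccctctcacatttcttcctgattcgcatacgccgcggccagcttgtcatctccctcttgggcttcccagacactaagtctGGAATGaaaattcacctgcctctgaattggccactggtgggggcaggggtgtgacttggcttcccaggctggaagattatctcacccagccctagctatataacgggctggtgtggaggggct
Yap1: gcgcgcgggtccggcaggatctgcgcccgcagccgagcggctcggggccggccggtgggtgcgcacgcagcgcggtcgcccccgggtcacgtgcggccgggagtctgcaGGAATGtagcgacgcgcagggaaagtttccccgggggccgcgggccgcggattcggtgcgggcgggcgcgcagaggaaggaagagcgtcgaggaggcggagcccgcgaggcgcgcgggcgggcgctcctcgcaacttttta

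Promoters of 7 members were found in the RefSeq table, those of Ccn1, Ankrd1, Amotl2, Tead2, Tead3, Yap1 and Wwtr1, and 6 of the 7 genes held the TEAD core motif in at least 1 window, all but Tead2. Over all 27025 genes with a promoter in the table, 14.4% held it. The CArG box, the SRF motif, searched by its strict form on both strands, was in 0 of the 7 and in 1.62% of all genes. Of the genes that hold the TEAD core, Amotl2 and Yap1 were lower in the double knockout pool and Tead3 and Wwtr1 higher. Ccn1 and Ankrd1, which hold it too, were not measured, and Ccn2 was not among the promoters found. Ccn1, Ankrd1 and Amotl2 were listed as known targets of YAP and TEAD, so a TEAD motif in them is no independent support. A match in the letters is a description and does not show binding, and the absence of a CArG box says only that these letters are not in these windows.

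Amotl2 encodes angiomotin-like 2, a junctional scaffold that binds YAP and holds it in the cytoplasm. Its only probe set, 1452387_a_at, read 646.1 in the double knockout pool and 713.3 in the control pool, 1.11-fold lower at -0.15. Of all genes above the floor, 17.5% were as low or lower.

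Ccn2 encodes connective tissue growth factor, a secreted matricellular protein. Its only probe set, 1416953_at, read 961.3 in the double knockout pool and 903.0 in the control pool, 1.06-fold higher at 0.09. Of all genes above the floor, 30.1% were as high or higher, so Ccn2 sits inside the bulk of genes. Subplate genes, which mark the neurons in which Ccn2 is known to be strong, numbered 5 higher and 2 lower of 7 measured, with a median of 0.07. Over all measured genes 52.9% were higher. With the mean over probe sets the list was 4 higher and 3 lower, still with a median of 0.07. With the floor at the 75th percentile it was 2 higher and 1 lower of 3, with a median of 0.02. The summed signal of the 7 subplate genes was 5478.6 in the double knockout pool and 5077.4 in the control pool. Among them Moxd1, a monooxygenase-like gene, differed by 0.39 and Nr4a2, an orphan nuclear receptor, by 0.25, while Tmem163 differed by -0.13 and Lpar1 by 0.08. Over its 4 probe sets above the floor Nr4a2 had a mean of 0.10 ± 0.12 (SD). Trh was under the floor in both pools. Their part in the Ccn2 value was not tested.

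Ccn1 encodes CYR61, the secreted relative of CCN2 that is an immediate early gene in many cells. Its 4 probe sets were all under the floor in both pools. They read 146.3, 116.4, 19.2 and 13.3 in the double knockout pool, against 162.7, 125.1, 20.4 and 13.3 in the control pool. Values under the floor have no order, so no direction is drawn from them. With the floor at the 25th percentile its brightest probe set gave a difference of -0.16.

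Ankrd1 encodes an ankyrin repeat protein of heart and injured muscle that is also a standard YAP readout in cultured cells. Its probe sets read 40.8 and 3.6 in the double knockout pool, against 50.1 and 12.7 in the control pool, both far under the floor. The relatives Ankrd2 and Ankrd23 were also under the floor in both pools. The array thus gave no value for the 3 genes of the muscle ankyrin repeat family.

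The kinases and scaffolds upstream of YAP showed no common direction. Of 17 listed genes 16 were measured, 10 higher and 6 lower, with a median of 0.03, against 52.9% higher and a median of 0.01 over all genes, and none reached 1.5-fold. Limd1, a LIM protein of the Ajuba family that restrains LATS kinases, read 431.7 in the double knockout pool and 295.4 in the control pool on its brightest probe set, 1.46-fold higher at 0.54. Its second probe set differed by 0.10, so its mean was 0.32 ± 0.31 (SD, 2 probe sets). Taok2, a kinase that can activate MST kinases, read 331.8 in the double knockout pool and 425.3 in the control pool, a difference of -0.36 on the only probe set above the floor in both. Lats2, a kinase that phosphorylates YAP and itself a YAP target, read 335.2 in the double knockout pool and 291.5 in the control pool, with a mean of 0.13 ± 0.10 (SD, 2 probe sets). Wwc2, a relative of the scaffold KIBRA, differed by 0.20 on its brightest probe set, but its 3 probe sets averaged 0.03 ± 0.18 (SD). Of the larger differences here, that of Limd1 came with probe sets of unequal size and that of Taok2 with 1 probe set.

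Junction genes and large cadherins that feed into the pathway were split. Of 10 listed genes 8 were measured, 4 higher and 4 lower, with a median of 0.02, or -0.01 after quantile or loess normalization. Without probe sets ending in _x_at, _s_at or _a_at they were 5 higher and 2 lower of 7, with a median of 0.17. Fat4, a giant cadherin, read 1242.4 in the double knockout pool and 979.3 in the control pool, with a mean of 0.28 ± 0.09 (SD, 2 probe sets). Its binding partner Dchs1 read 532.5 in the double knockout pool and 630.1 in the control pool on its only probe set, a difference of -0.25. The angiomotin relatives of Amotl2 went both ways on their brightest probe sets. Amot read 861.7 in the double knockout pool and 615.4 in the control pool, yet its probe sets differed by 0.48 and -0.26, a mean of 0.11 ± 0.53 (SD, 2 probe sets). Amotl1 read 730.6 in the double knockout pool and 864.6 in the control pool, with a mean of -0.09 ± 0.22 (SD, 2 probe sets). Of the VGLL proteins, which compete with YAP for TEAD in several tissues, Vgll4 read 593.2 in the double knockout pool and 593.6 in the control pool, and Vgll3 differed by -0.09. After quantile normalization 1 of these genes was higher and 1 lower. Vgll1 and Vgll2 were under the floor in both pools. Of the other CCN genes, Ccn3, a growth-inhibiting matricellular protein, read 5705.6 in the double knockout pool and 5958.3 in the control pool, with a mean of -0.01 ± 0.08 (SD, 2 probe sets). Ccn5 read 156.3 in the double knockout pool and 184.4 in the control pool, at least 1.03-fold lower, and Ccn4 and Ccn6 were under the floor in both.

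**Figure D3:**
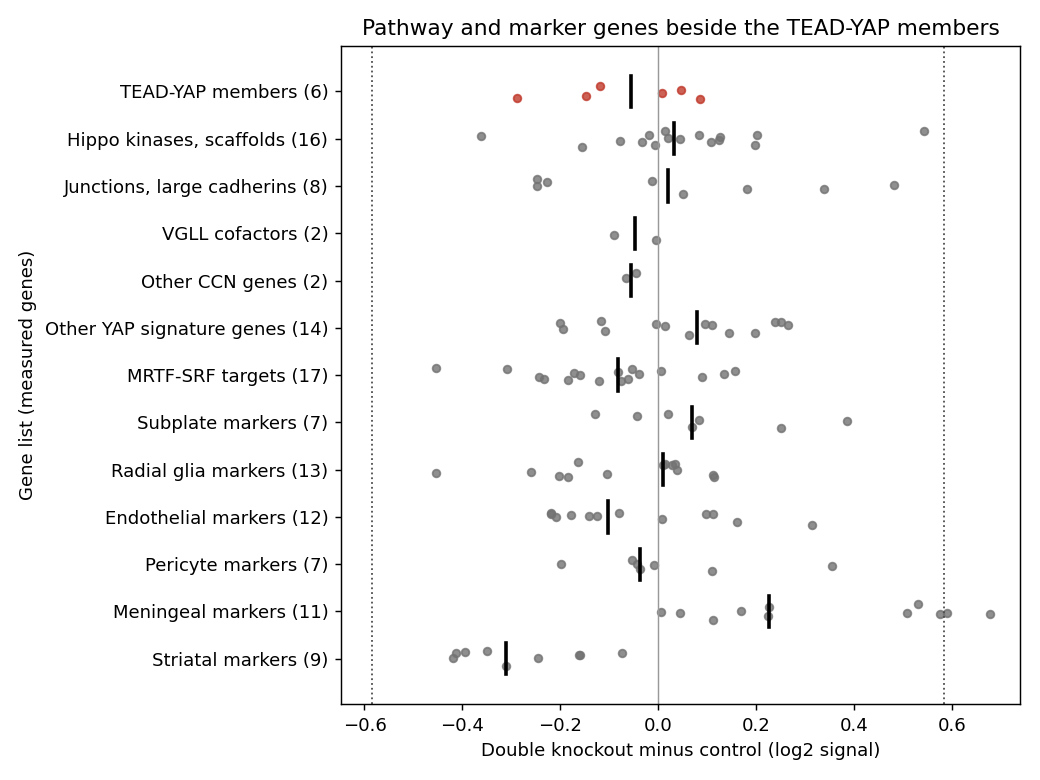
Difference between the pools (double knockout minus control, log2) of each measured gene in the member set, in lists of the Hippo pathway and of MRTF-SRF targets, and in marker lists, with the median of each as a black bar, the number of measured genes in brackets and 1.5-fold as dotted lines. The members span -0.29 to 0.09, while meningeal markers lie above 0 and striatal markers below 0.

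Other YAP and TAZ targets were taken from a published signature built on human tumours, without the members. Of 18 genes 14 were measured, 9 higher and 5 lower in the double knockout pool, with a median of 0.08. Over all measured genes 52.9% were higher, with a median of 0.01. The count was the same after quantile normalization and loess centring. It was also the same with the mean over probe sets, but the median was then 0.03. A pseudocount gave 12 higher and 6 lower of 18, with a median of 0.03. Dock5, an exchange factor for Rac, differed by 0.27, Ptpn14, a phosphatase that binds YAP, by 0.25, and both rest on 1 probe set above the floor in both pools. Fjx1, a relative of the Drosophila protein Four-jointed, which acts in the Fat and Dachsous system, read 899.2 in the double knockout pool and 760.0 in the control pool, with a mean of 0.20 ± 0.06 (SD, 2 probe sets). Nuak2, a kinase related to AMPK, was under the floor in the double knockout pool, at 168.6 against 205.4 in the control pool, at least 1.15-fold lower. The other lower genes were Arhgef17 at -0.19, Tgfb2 at -0.12, Axl at -0.11 and F3 at -0.005. Arhgef17 averaged -0.13 ± 0.21 and Tgfb2 -0.06 ± 0.07 (SD, 3 probe sets each). The median lay above 0 while Yap1 and Amotl2 lay below it, and no test of that contrast is possible with these arrays.

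MRTF-SRF targets without the members were lower in 13 of 17 measured cases, with a median of -0.08. Over all measured genes 47.1% were lower, and the median was 0.01. Without probe sets ending in _x_at, _s_at or _a_at the targets were 8 lower and 5 higher of 13, with a median of -0.05. A lower median of such targets in these arrays was already known when the list was drawn up, so it is no independent support. Tgfb1i1, a focal adhesion protein, differed by -0.45, Srf itself by -0.31, the smooth muscle actin gene Acta2 by -0.24 and the tropomyosin gene Tpm2 by -0.23. The 2 probe sets of Srf averaged -0.28 ± 0.05 (SD). The 4 higher genes were Mylk at 0.16, Fhl1 at 0.14, Fhl2 at 0.09 and Zyx at 0.005. None reached 1.5-fold. Of the targets shared by both programmes, Amotl2 at -0.15 lay below the list median of -0.08 and Ccn2 at 0.09 above it.

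YAP, TAZ and CCN genes are also active in meningeal, endothelial and mural cells, whose markers are given here. Meningeal genes were higher in 11 of 11 cases in the double knockout pool, with a median of 0.23, or 10 of 11 with a median of 0.49 without probe sets ending in _x_at, _s_at or _a_at. They had a summed signal of 10256.7 in the double knockout pool and 7954.3 in the control pool. Aldh1a2, Igf2, Islr and Ogn differed by 0.68, 0.59, 0.53 and 0.51, with a mean of 0.27 ± 0.34 (SD, 2 probe sets) for Ogn. At the other end Foxc1 differed by 0.01 and Lum by 0.04, and Slc6a13 was a bound, under the floor in the control pool. Col1a1 and Col3a1 each had a further probe set at -0.02. Over all measured genes 52.9% were higher. Endothelial genes were 5 higher and 7 lower of 12, with a median of -0.10, and their summed signal was 5961.7 in the double knockout pool and 6075.4 in the control pool. In this list Tek differed by 0.31 and Slco1a4, Pecam1 and Mfsd2a by -0.22, -0.22 and -0.21, and Tie1 was under the floor. Pericyte genes were 2 higher and 5 lower of 7, with a median of -0.04, or 0.11 over the 3 genes left with the floor at the 75th percentile, and summed signals of 8183.1 in the double knockout pool and 7518.7 in the control pool. Vtn differed by 0.35 and Cspg4 by -0.20, with means of 0.27 ± 0.12 and 0.01 ± 0.29 (SD, 2 probe sets each), and Anpep was under the floor. Rgs5 differed by 0.11 and Notch3 by -0.05, with means of -0.01 ± 0.12 (SD, 4 probe sets) and -0.39 ± 0.48 (SD, 2 probe sets).

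Radial glia genes, which mark the progenitors in which YAP is known to act, were 7 higher and 6 lower of 13, with a median of 0.01. They were 5 higher and 8 lower after quantile normalization (median -0.02) and after loess centring (median -0.03), and 4 higher and 7 lower of 11 without the suffixed probe sets (median -0.10). Their summed signal was 22648.9 in the double knockout pool and 23288.8 in the control pool. Emx2, Hes5, Sox9 and Nes differed by -0.45, -0.26, -0.20 and -0.18, with a mean of -0.08 ± 0.17 (SD, 2 probe sets) for Sox9. These largest differences on the brightest probe sets were all lower. Hes1 and Vim were the highest of the 7 higher genes, both at 0.11. The 6 probe sets of Slc1a3 ran from -0.30 to 0.73, with a mean of 0.09 ± 0.40 (SD). Hopx averaged 0.19 ± 0.24 (SD, 2 probe sets). Vim had a mean of 0.18 ± 0.08 (SD, 3 probe sets). Striatal genes were lower in 9 of 9 cases, with a median of -0.31 and summed signals of 10553.9 in the double knockout pool and 12439.0 in the control pool. Drd2, Six3, Penk and Gpr6 differed by -0.42, -0.41, -0.39 and -0.35, and Ebf1 was under the floor. Markers under the floor are not shown to be absent. The part of these markers in the values of Yap1, Amotl2 and the other members was not tested.

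**Figure D4:**
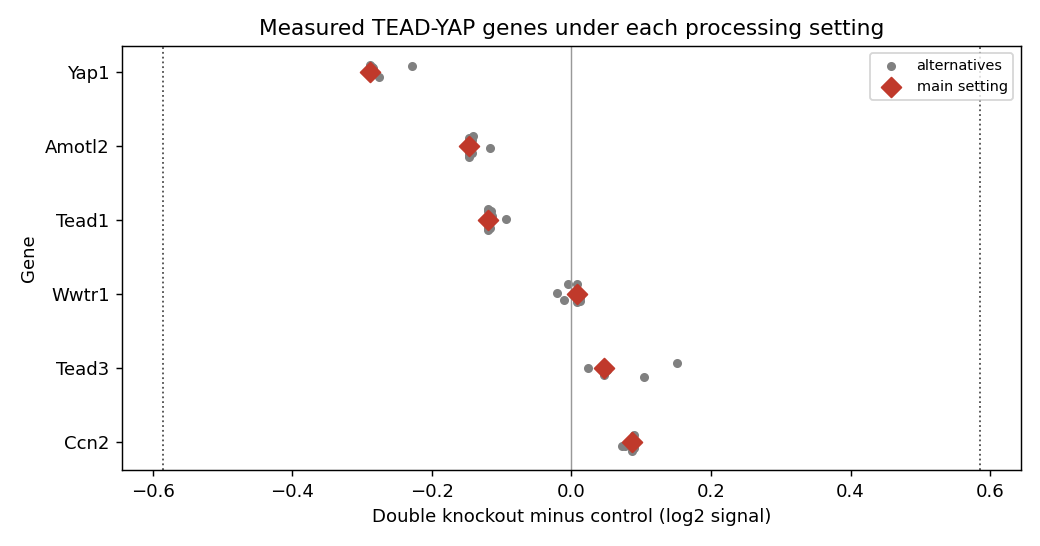
Difference between the pools (double knockout minus control, log2) of the 6 measured members under the main setting (diamonds) and under up to 10 alternative settings (grey points, spread vertically for sight), with 1.5-fold as dotted lines. Yap1 stays between -0.29 and -0.23 and Ccn2 between 0.07 and 0.09, while Wwtr1 lies on both sides of 0. Every Yap1 point comes from the same probe set, as does every Ccn2 point.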

How the data were processed

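Signals were taken as the authors deposited them, 1 intensity per probe set and array on a linear scale, made with MAS5, as the submitters' processing notes name it. Its version and scaling are not stated in any source used here. Per the labels' protocols, 6 ug of total RNA of each pool went into biotin-labelled cRNA. The 2% trimmed mean was 500.002 on both arrays. After 64 control probe sets were set aside, 34945 of 45037 probe sets named 1 gene, 932 several and 9160 none. Probe sets naming several genes included 0 that name a member. Entrez identifiers of 99.4% matched a RefSeq table of GRCm38.p6. Signals were centred on the median log2 difference of bright probe sets, floored at the 50th percentile and log2 transformed with statsmodels 0.14.6, pandas 2.3.3 and numpy 2.4.6 under Python 3.11.15, after the steps were tested on simulated data, and plotted with matplotlib 3.10.9. The simulation changed only genes above the floor, by more than any member differed, so it does not cover small or near-floor differences. A gene took its brightest probe set. Named genes are the members, Mrtfa, Mrtfb and, per list, the 4 largest differences on both arrays and any past 1.5-fold. A gene named beyond this was chosen after its values were seen. The members and the other 20 lists with 193 entries were chosen with earlier results of these data known. The number of columns of no listed sample was 0. With 1 array per group, precision is limited by that number, and the SD printed covers probe sets, not animals.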

Additional observations from a re-analysis of the deposited data

How the results depend on the processing

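The other settings tried numbered 10: no centring, trimmed-mean scaling, quantile and loess normalization (span 0.3), floors at the 25th and 75th percentile, a pseudocount, no floor, the mean over probe sets, and no probe sets ending in _x_at, _s_at or _a_at. Under those that gave a value, Yap1 ranged from -0.29 to -0.23, Amotl2 from -0.15 to -0.12, Tead1 from -0.12 to -0.09, Tead3 from 0.02 to 0.15, Ccn2 from 0.07 to 0.09 and Wwtr1 from -0.02 to 0.01, and no member reached 1.5-fold under any of them. All Yap1 values came from its brighter probe set, since the dimmer one entered no setting. The narrow Yap1 range therefore does not test whether its probe sets agree. Amotl2 and Tead3 had no value without the suffixed probe sets, and Tead3 none with the floor at the 75th percentile. With a pseudocount or with no floor, all 10 members had a value, 5 lower and 5 higher, because signals under the floor then count. Over all genes, the split at 1.5-fold was 43 higher and 90 lower. Quantile normalization gave 68 higher and 70 lower, and loess centring 60 higher and 72 lower. The split was 189 and 675 with a 25th percentile floor, 11 and 10 at the 75th, 24 and 41 with a pseudocount and 742 and 1874 with no floor. Why the quantile and loess splits differ was not tested. No paired analysis was possible because each group has 1 array, and no replicate could be left out for the same reason. Signals near the floor limit Tead2, Tead3, Ccn1 and the dimmer Wwtr1 probe sets.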

Other observations

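Further lists describe the same pools. Cortical neuron genes were 4 higher and 1 lower of 5 in the double knockout pool, with a median of 0.14. Over all measured genes 52.9% were higher. Bcl11b was at 0.18, Emx1 at 0.17, Tbr1 at 0.14, Neurod6 at 0.05 and Fezf2 at -0.04. Averaged over its 4 probe sets, Bcl11b was at -0.06 ± 0.26 (SD). With the mean over probe sets the list was 3 higher and 2 lower, with a median of 0.05. Astrocyte genes were 4 higher and 4 lower of 8, with a median of 0.02. Gfap, the filament gene whose promoter names the Cre transgene, read 2753.0 in the double knockout pool and 1822.5 in the control pool, 1.51-fold higher, while Clu and Slc1a2 both differed by -0.20 on their brightest probe sets and Gjb6 by 0.35. The 2 probe sets of Slc1a2 disagreed, at -0.20 and 0.01, averaging -0.09 ± 0.15 (SD), and the 4 of Clu averaged -0.24 ± 0.09 (SD). The astrocyte median was -0.0037 after quantile normalization, -0.0076 after loess centring and 0.11 without probe sets ending in _x_at, _s_at or _a_at. Genes of the microglia list, which also holds the border macrophage gene Mrc1, were 6 higher and 5 lower of 11, with a median of 0.11. Mrc1 was at 0.68, C1qc at 0.46 and C1qb at 0.37. The 5 lower ones were P2ry12 at -0.37, Tmem119 at -0.14, Cx3cr1 at -0.13, Fcer1g at -0.08 and Aif1 at -0.06. With the mean over probe sets the list turned to 5 higher and 6 lower, with a median of -0.0012, and C1qb averaged 0.21 ± 0.14 (SD) over 3 probe sets.

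Oligodendrocyte genes were 6 lower and 2 higher of 8, with a median of -0.29, against 47.1% lower over all measured genes. Mobp and Mag were 1.96-fold and 1.63-fold lower, with Mbp at -0.43 and Cnp at -0.32. Sox10 was at -0.25 and Olig2 at -0.05, while Pdgfra at 0.15 and Olig1 at 0.04 were the 2 higher ones. Pdgfra averaged -0.02 ± 0.24 (SD, 2 probe sets) and Sox10 -0.12 ± 0.14 (SD, 3 probe sets). Without the suffixed probe sets the list was 3 lower and 2 higher of 5, with a median of -0.05. Over their probe sets Mbp averaged -0.61 ± 0.33 (SD, n = 7), Cnp -0.50 ± 0.20 (SD, n = 3) and Mobp -0.99 ± 0.15 (SD, n = 3). Choroid plexus genes were 3 lower and 1 higher of 4, with a median of -0.15, Kcnj13 at -0.41, Clic6 at -0.24, Folr1 at -0.07 and Ttr at 0.03, and 2 lower and 2 higher after quantile normalization. Of 7 heart and muscle genes, set beside Ankrd1, only Ckm at -0.51 and Actn2 at -0.10 were measured, while a floor at the 25th percentile gave 5 a value, 2 higher and 3 lower.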
